A study of Mus musculus with 56 samples.

Results

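The genes of the NF-kB, Toll-like receptor and apoptosis pathways on the MUSV29K mouse cDNA microarray were taken as all spots whose gene name begins with Nfkb, Traf, Tlr, Myd88, Irak, Ripk, Casp, Bcl or Birc, or is Rel, Rela, Relb, Bad, Bax or Bid. The rule found 57 clones of 42 genes among the 7625 clones of 5883 gene names that were tested. Of these genes, 30 had 1 clone and 12 had several, and a clone is named below by its gene and its spot number on the membrane. The array carried no clone of Nfkb1, Rel, Rela, Tlr2, Tlr3, Tlr4, Traf6, Ripk1, Bcl10, Bax or Bad, so that the canonical NF-kB subunits were not measured by a clone of that name. The names are those of the spot list, and 3 of them are older names: Birc1f is now Naip6, Nfkbil2 is now Tonsl and Ripk5 is now Dstyk.

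Lung RNA came from female C57Bl/6J mice, 7 weeks old and anesthetized, which received oleic acid (OA) or physiological serum through the tail vein. OA given in the blood injures the lung without an infectious agent. The 27 OA mice were killed 1 h (4 mice), 1.5 h (6 mice), 3 h (7 mice), 4 h (4 mice), 18 h (3 mice) or 24 h (3 mice) after the injection and were measured on 50 arrays, with 2 arrays for 23 of them. The 8 serum mice, on 9 arrays, were killed after 1 h (2 mice), 1.5 h (1 mouse), 3 h (2 mice), 18 h (2 mice) or 24 h (1 mouse), with none at 4 h, and no mouse without an injection was measured. The sample labels do not name the serum mice. The 2 serum arrays at 1.5 h were averaged as 1 mouse, and those at other times were taken as separate mice. For 1 array of the OA mouse P7L3 the labels conflict between 3 h and 1.5 h, and the array was kept with that mouse at 3 h. At 1.5 h the OA mouse P7L2 stood apart from its group: its mean correlation with the other mice of the group over all clones was 0.883, against 0.928 to 0.946 for the others, and results without it are given where they change a call. RNA was extracted from whole lung, so that fewer cells of a type and less RNA per cell cannot be told apart.

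NF-kB is a family of dimeric transcription factors that inhibitors of the IkB family hold in the cytoplasm. Toll-like receptors signal through Myd88 and the Irak kinases, and tumor necrosis factor receptors through Traf adaptors and Ripk kinases, to a kinase complex that removes the inhibitors. The freed factors transcribe cytokines and adhesion molecules, and also their own inhibitor Nfkbia and the survival genes Birc3 and Bcl2l1. Caspases carry out apoptosis or, for Casp1 and Casp4, process inflammatory cytokines and open the cell membrane, while the BCL2 family controls the mitochondrial path to caspases and the inhibitor of apoptosis proteins act on caspases and on receptor signaling.

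Sequences upstream of 3 genes are shown because the clones of these genes carry the time courses described first. They are RefSeq sequences of the GRCm38.p6 build, 250 bases that end just before an annotated transcription start, written 5′ to 3′ on the gene's strand, which is the minus strand for all 3 genes. Matches to the NF-kB consensus site (the kappa B motif of 10 bases, searched on both strands) are in capitals. The windows are chr12:55492648-55492897 for Nfkbia, chr9:7873171-7873420 for Birc3 and chr2:152830718-152830967 for 1 of 3 annotated starts of Bcl2l1.
Nfkbia: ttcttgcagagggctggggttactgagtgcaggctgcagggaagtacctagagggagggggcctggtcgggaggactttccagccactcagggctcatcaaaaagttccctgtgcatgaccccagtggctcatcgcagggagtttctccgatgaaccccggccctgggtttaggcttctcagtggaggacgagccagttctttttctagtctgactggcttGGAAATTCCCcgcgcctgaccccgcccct
Birc3: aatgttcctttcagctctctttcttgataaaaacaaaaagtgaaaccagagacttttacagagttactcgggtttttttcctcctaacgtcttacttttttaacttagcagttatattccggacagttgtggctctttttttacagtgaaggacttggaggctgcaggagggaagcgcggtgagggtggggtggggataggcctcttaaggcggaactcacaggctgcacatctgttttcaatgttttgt
Bcl2l1: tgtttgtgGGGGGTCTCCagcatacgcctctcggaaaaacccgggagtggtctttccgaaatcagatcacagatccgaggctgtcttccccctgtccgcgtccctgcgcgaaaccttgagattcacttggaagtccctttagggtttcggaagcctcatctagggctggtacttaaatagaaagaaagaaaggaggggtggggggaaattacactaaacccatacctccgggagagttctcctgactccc
Nfkbia held 1 match, from 29 to 20 bases before the start. The Birc3 window held none. Bcl2l1 held 1 match, from 242 to 233 bases before the start shown, and its other windows held none. A window was found for 34 of the 42 genes, and 8 of these 34 (23.5%) held a match in at least 1 window, against 8.23% of 27025 genes searched in the same way. The 8 genes were Bcl2l1, Bcl7b, Birc5, Casp4, Irak1, Nfkb2, Nfkbia and Nfkbie. A match is a description of the letters and does not show that the factor binds there.

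Most of the clones gave a weak signal in lung. A clone was set against the 2159 spots of the membrane that have no gene name, some of which may hold unnamed clones, and counted as bright on an array where it exceeded 95% of them. On that scale 8 of 57 clones were bright on more than 25 of the 50 OA arrays (14%, against 33.4% of all clones), and 39 clones were bright on none (68.4%, against 43% of all clones). The bright clones were both clones of Nfkbia (50 and 50 arrays), Casp4 (50 arrays), Tlr9 (49 arrays), Ripk5 (49 arrays), Birc3 (45 arrays), 1 clone of Bcl2l10 (44 arrays) and 1 clone of Irak1 (43 arrays). Against the median of the unnamed spots, 54 of the 57 clones were higher on more than 25 arrays, beside 97.7% of all clones. The clones that were not were Bcl2l14 (1 array), Casp8 (9 arrays) and Casp14 spot 9286 (21 arrays), and Relb spot 5232 was higher on 27. A weak clone can hide a change, and values of clones that were bright on few arrays are given as measured.

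**Figure D1:**
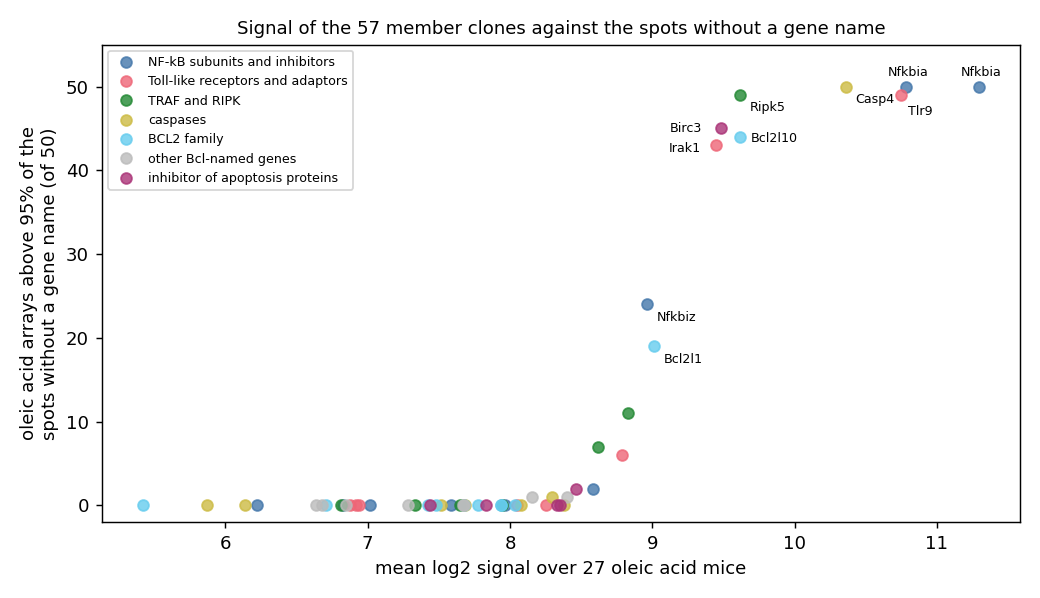
Mean log2 signal of each of the 57 clones over the 27 OA mice (horizontal axis) and the number of the 50 OA arrays on which the clone exceeded 95% of the spots without a gene name (vertical axis), coloured by role. Names are given for the 10 clones bright on more than 15 arrays, and 39 clones lie at 0.

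The first question was which of these genes changed between the 6 time points after OA. Birc3, which encodes an inhibitor of apoptosis protein that ubiquitinates receptor complexes, changed most clearly: its mean log2 signal was 9.46 at 1 h, 9.67 at 4 h and 9.17 at 18 h. Bcl2l1, which encodes the survival protein Bcl-xL, was the only other gene called, with a mean of 8.84 at 1 h and 9.31 at 4 h on its spot 5390. Thus 2 of 57 clones passed limma's moderated F test at an adjusted p under 0.05, against 2.01% of all 7625 clones (153 clones). Without adjustment, 13 of 57 clones (22.8%) had p under 0.05, against 15.8% of all clones. The span from the lowest to the highest time-point mean had a median of 0.37 on the log2 scale over the 57 clones and 0.33 over all clones.

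Birc3 was highest 3 and 4 h after OA and lowest at 18 and 24 h. Its log2 signal in the mice was 9.275, 9.485, 9.525 and 9.55 at 1 h. At 1.5 h it ranged from 9.26 to 9.62 with a median of 9.50, and at 3 h from 9.53 to 9.82 with a median of 9.64. At 4 h it was 9.395, 9.675, 9.76 and 9.85, at 18 h 9.07, 9.18 and 9.25, and at 24 h 9.115, 9.19 and 9.255. The 6 mice at 18 and 24 h were all below the other 21 mice, while the 4 earlier groups overlapped. The adjusted p of the F test was 0.0083. Between 4 and 18 h the signal fell by 0.50 ± 0.11 (SE) on the log2 scale (adjusted p = 0.020, limma), against a standard deviation of 0.13 between mice of a time point and of 0.15 between arrays of a mouse.

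The fall of Birc3 between 4 and 18 h was the only call among the 57 clones in any of the 5 steps between neighboring time points. In that step 1.04% of all clones were called in either direction and 0.931% were called lower. All clones called amounted to 0% from 1 to 1.5 h, 0.367% from 1.5 to 3 h, 0% from 3 to 4 h and 0.0262% from 18 to 24 h. At an unadjusted p under 0.05, 8 of the 57 clones were lower and 2 higher at 18 than at 4 h, beside 815 of the 7625 clones in either direction, and 6 were higher and 4 lower at 3 than at 1.5 h, beside 1105 of all clones. In the steps with no call by limma among the 57 clones, 3 clones had an unadjusted p under 0.05 from 1 to 1.5 h (292 of all clones), 0 from 3 to 4 h (263 of all clones) and 2 from 18 to 24 h (553 of all clones). All mice at 18 and 24 h carry the number 1 after the L of their name, whose meaning the labels do not give, and 3 earlier mice do. With that number as a block the F test of Birc3 had an adjusted p of 0.031 and the step from 4 to 18 h one of 0.063. That step also lost its call without the mouse P11L2 (adjusted p = 0.083), P13L3 (0.053), P4L1 (0.052), P10L1 (0.060) or P12L1 (0.14), while the difference stayed between -0.60 and -0.44.

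Bcl2l1 had its highest mean at 4 h on spot 5390. The log2 signal was 8.635, 8.75, 8.835 and 9.12 at 1 h. It ranged from 8.67 to 9.03 at 1.5 h and from 9.015 to 9.275 at 3 h, with medians of 8.87 and 9.19. It was 9.07, 9.34, 9.395 and 9.425 at 4 h, 8.85, 9.01 and 9.03 at 18 h, and 8.715, 9.045 and 9.05 at 24 h. The mice at 4 h overlapped those at 1 and 3 h, and 3 of the 4 were above all other mice. The adjusted p of the F test was 0.049, at the threshold: without any 1 of 23 of the 27 mice it lay above 0.05 (up to 0.13, without P11L2), and only without P2L3, P4L3, P6L2 or P12L3 did it stay below. The clone was bright on 2 of 8 arrays at 1 h, on 1 of 10 at 1.5 h and on 6 of 13 at 3 h. It was bright on 7 of 8 at 4 h, on 0 of 5 at 18 h and on 3 of 6 at 24 h. The second clone, spot 3827, was bright on no array, had means between 7.32 at 1 h and 7.65 at 4 h, and was not called (adjusted p = 0.40).

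**Figure D2:**
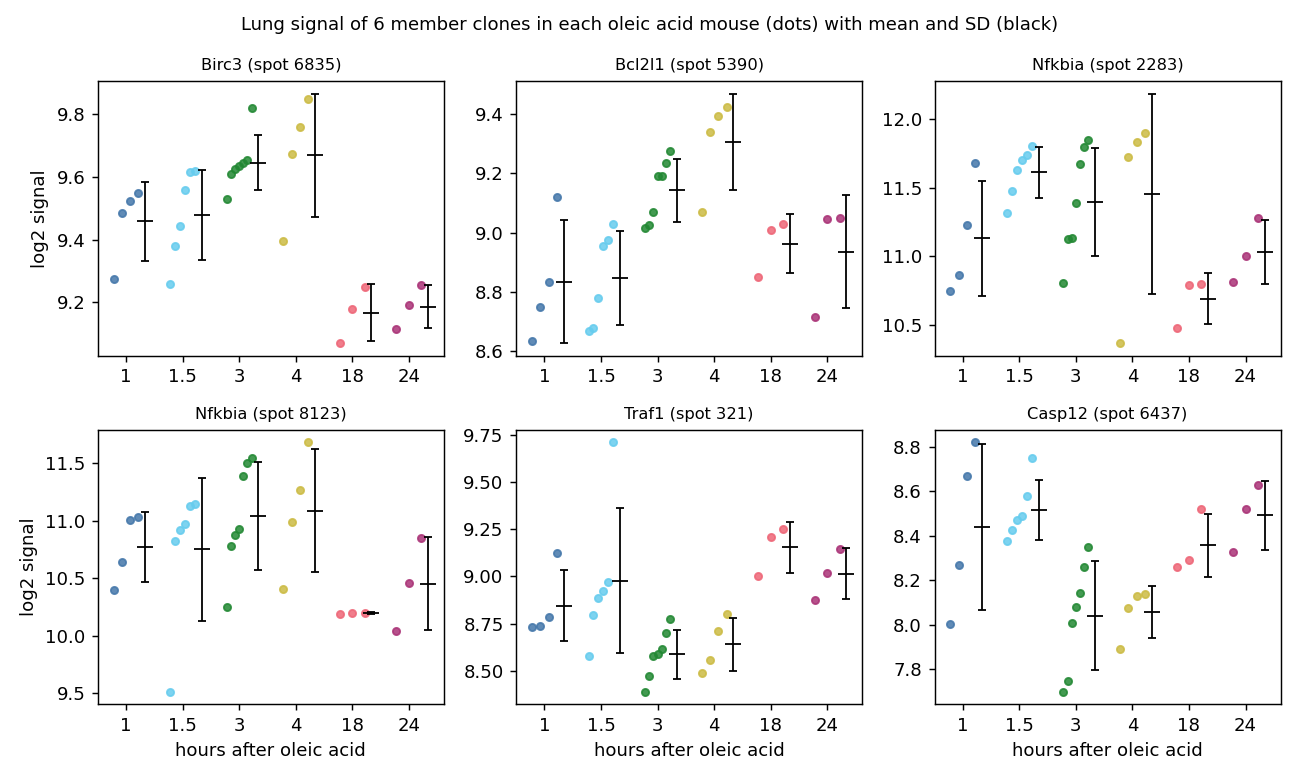
Log2 signal (vertical axis, a scale of its own for each clone) in each of the 27 OA mice by hours after OA (horizontal axis) for Birc3, Bcl2l1, both clones of Nfkbia, Traf1 and Casp12. Dots are mice, and black marks give the mean and standard deviation of the time point. Birc3 at 18 and 24 h lies between 9.07 and 9.255, below the other mice, and Traf1 and Casp12 have their lowest means at 3 and 4 h.

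The groups of genes below follow the names of the spot list, so that Nfkbil2 (now Tonsl) and Ripk5 (now Dstyk) are counted by their older names. Among the genes named as NF-kB subunits and inhibitors, 0 of 9 clones of 7 genes were called by limma over the time course, and 1 had an unadjusted p under 0.05. That clone was spot 2283 of Nfkbia, which encodes the inhibitor IkB alpha and is itself transcribed by NF-kB. Its mean log2 signal was 11.13 at 1 h, 11.61 at 1.5 h, 11.39 at 3 h, 11.46 at 4 h, 10.69 at 18 h and 11.03 at 24 h. The mice at 1.5 h ranged from 11.315 to 11.805 and those at 18 h were 10.475, 10.79 and 10.80, without overlap between these 2 groups. At 4 h 3 mice were at 11.725, 11.835 and 11.90 and the mouse P12L3 at 10.365. The adjusted p was 0.25, and it was 0.028 with the single arrays as samples and the mouse as a random block. Without P12L3 it was 0.029, and the fall from 4 to 18 h was then called as well. Under 32 of 35 alternatives the clone stayed uncalled over time, with an adjusted p of up to 0.54 (limma).

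The second clone of Nfkbia, spot 8123, was at 10.77 at 1 h, 10.75 at 1.5 h, 11.04 at 3 h, 11.09 at 4 h, 10.20 at 18 h and 10.45 at 24 h (means, log2 signal; adjusted p = 0.38). At 1.5 h the mouse P7L2 was at 9.51 and the other mice between 10.825 and 11.145. From 4 to 18 h spot 2283 differed by -0.77 ± 0.29 (SE) and spot 8123 by -0.89 ± 0.34, with adjusted p of 0.29 and 0.30 (limma). Over the 27 mice the 2 clones had a Pearson r of 0.65 (permutation p = 2.3e-04, adjusted 0.0037) and a Spearman rho of 0.73 (permutation p = 4.0e-05, adjusted 7.6e-04), and r was 0.62 without the 2 mice farthest from the median of spot 2283. Nfkbia was 1 of 2 genes among the 12 with several clones whose clones were correlated after adjustment over 19 pairs. The other was Birc2, with an r of 0.64 (permutation p = 3.9e-04, adjusted 0.0037), a rho of 0.63 (permutation p = 6.3e-04, adjusted 0.0060) and an r of 0.57 without the 2 farthest mice. The median r of the 19 pairs was 0.10.

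The other NF-kB members gave values without a call. Nfkb2, the precursor of the p52 subunit, had time-point means between 7.51 and 7.80. Relb, the partner of p52, had means between 6.06 and 6.52 on spot 5232 and between 6.94 and 7.20 on spot 9287. The inhibitor genes Nfkbib and Nfkbie lay between 7.73 and 8.24 and between 6.73 and 6.92. None of these 5 clones was bright on any OA array, and their adjusted p ran from 0.67 to 0.92 (limma). Nfkbiz, an inducible nuclear IkB protein outside the fixed list and named after its values were seen, was bright on 24 arrays and had means of 8.66 at 1.5 h and 9.21 at 3 h (difference 0.55 ± 0.17, SE, adjusted p = 0.15, limma). With arrays as samples that step had an adjusted p of 0.042, and it was also called without P4L3. At 1.5 h Nfkbiz was at 7.70 in P7L2 and between 8.565 and 9.24 in the other mice, and without P7L2 the step to 3 h was not called.

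**Figure D3:**
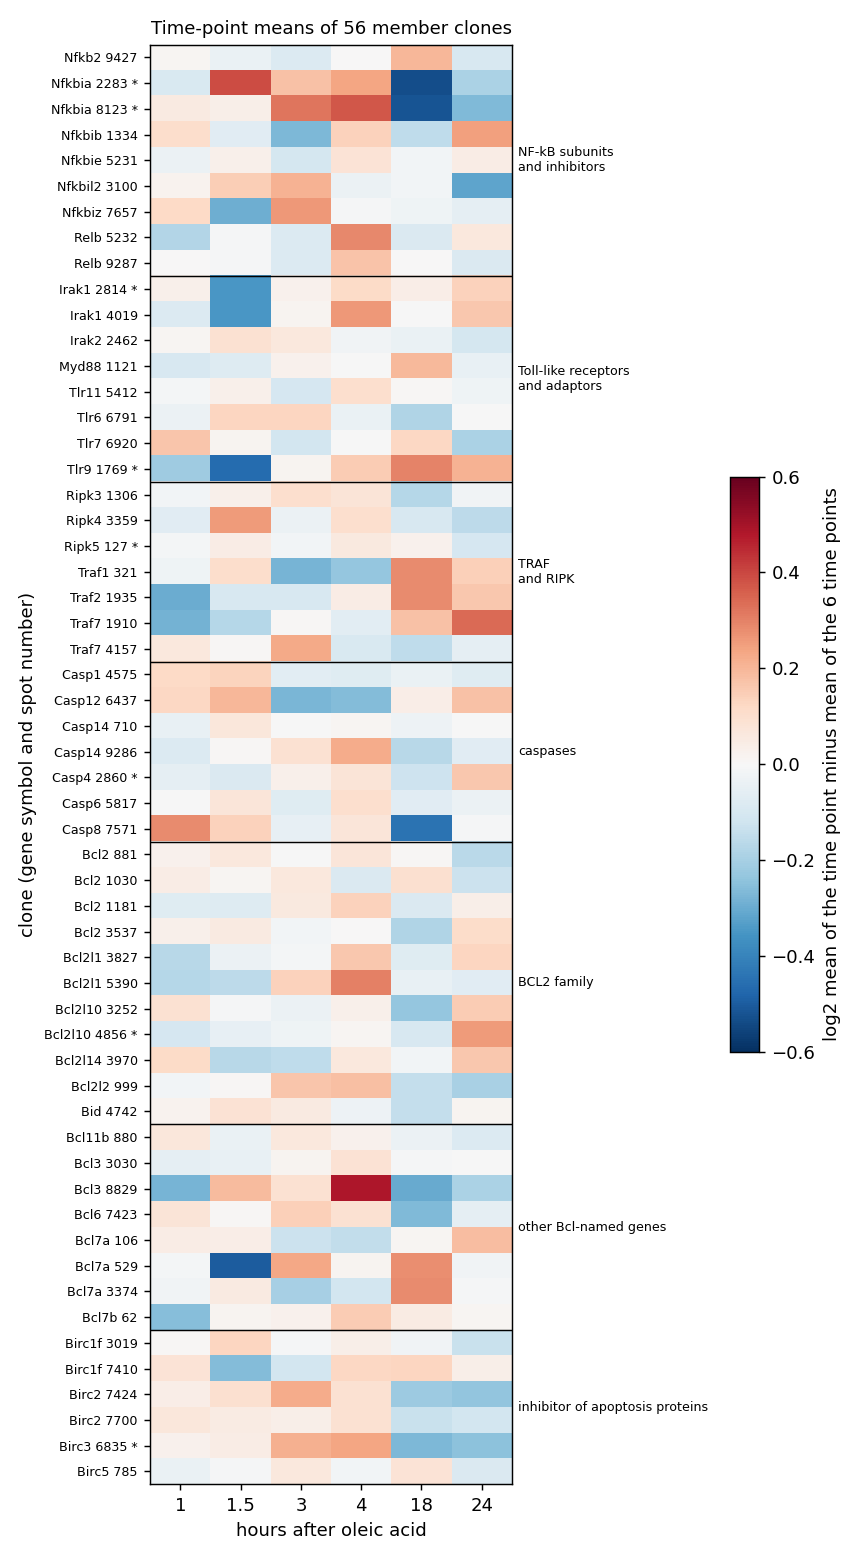
Time-point mean of each of 56 clones minus the mean of its 6 time points (colour, log2 scale from -0.6 to 0.6), by hours after OA (columns) and grouped by role (rows, with gene and spot number). An asterisk marks the 8 clones bright on more than 25 of 50 OA arrays. Both clones of Nfkbia and the clone of Birc3 are blue at 18 and 24 h.

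Of the Toll-like receptors and their adaptors, 0 of 8 clones of 7 genes were called by limma and 1 had an unadjusted p under 0.05. That clone was Tlr9, a receptor for unmethylated DNA in endosomes, which was named after its values were seen. Its means were 10.58 at 1 h, 10.34 at 1.5 h, 10.81 at 3 h, 10.95 at 4 h, 11.10 at 18 h and 11.01 at 24 h (log2 signal, adjusted p = 0.30). Single mice ranged from 9.735 to 11.48, with a standard deviation of 0.39 between mice of a time point and 0.48 between arrays of a mouse. Myd88, the adaptor of most Toll-like receptors, had means between 8.16 and 8.46 (adjusted p = 0.65). The kinase gene Irak1 had means between 9.12 and 9.62 on spot 2814 and between 7.73 and 8.34 on spot 4019 (adjusted p = 0.45 and 0.51), and both clones were lowest at 1.5 h. On spot 2814 P7L2 was then at 7.99 and the other mice of that time point between 9.235 and 9.475. The clones of Irak2, Tlr6, Tlr7 and Tlr11 had adjusted p from 0.32 to 0.87.

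Of the 7 clones of 6 TRAF and RIPK genes, 0 were called by limma and 3 had an unadjusted p under 0.05. Traf1, a signaling adaptor of tumor necrosis factor receptors that NF-kB transcribes, had its lowest means at 3 and 4 h, and was named after its values were seen. Its means were 8.85 at 1 h, 8.98 at 1.5 h, 8.59 at 3 h, 8.64 at 4 h, 9.15 at 18 h and 9.01 at 24 h, with an adjusted p of 0.13. The mice at 3 h ranged from 8.39 to 8.775, those at 4 h were 8.49, 8.56, 8.71 and 8.80, and those at 18 h were 9.00, 9.21 and 9.25, so that the mice at 18 h did not overlap those at 3 and 4 h. The earlier mice did overlap them: they were at 8.73, 8.74, 8.785 and 9.125 at 1 h. At 1.5 h the mice other than P7L2 lay between 8.58 and 8.97. P7L2 was at 9.71 at 1.5 h, above every other mouse. Without it the adjusted p was 0.018 and the rise from 4 to 18 h was called, and with arrays as samples the adjusted p was 0.039. Under 32 of 35 alternatives Traf1 stayed uncalled over time, with an adjusted p of up to 0.33 (limma). Traf2, which recruits the Birc proteins to receptors, had means between 7.39 at 1 h and 7.97 at 18 h (adjusted p = 0.27).

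Of the caspases, 0 of 8 clones of 7 genes were called by limma and 1 had an unadjusted p under 0.05. Casp12, an endoplasmic reticulum caspase and the caspase with the smallest adjusted p (0.088), was named after its values were seen. Its means were 8.44 at 1 h, 8.52 at 1.5 h, 8.04 at 3 h, 8.06 at 4 h, 8.36 at 18 h and 8.49 at 24 h. Its mice at 1.5 h lay between 8.375 and 8.75 and those at 3 h between 7.70 and 8.35, without overlap, and the step between them was -0.47 ± 0.12 (SE, adjusted p = 0.079, limma). It was bright on 1 of 50 arrays. Without the mouse P3L2 the adjusted p of the F test was 0.028, and without P4L3 the step from 1.5 to 3 h was called. Under 32 of 34 alternatives the F test of Casp12 stayed uncalled, with an adjusted p of up to 0.20. Casp1, which activates interleukin 1 beta, had means between 7.43 and 7.64 (adjusted p = 0.58), and Casp8, the initiator of receptor-driven apoptosis, had means between 5.405 and 6.13 (adjusted p = 0.40). Casp4, which senses lipopolysaccharide in the cytosol, was bright on every OA array and its means lay between 10.24 and 10.53 (adjusted p = 0.72).

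Traf1 and Casp12 had their lowest means at 3 and 4 h, and so did the B cell list. The B cell list had 13 clones of 5 genes, of which 3 were called over the time course (Ms4a1 spot 2703 among them), and its mean level per mouse, centred on the mean of all mice, ran from 0.01 to 0.45 at 1 h, from -0.09 to 0.49 at 1.5 h, from -0.58 to 0.20 at 3 h, from -0.24 to 0.17 at 4 h, from -0.13 to -0.01 at 18 h and from -0.09 to 0.12 at 24 h (log2). The clones of this list did not all move together. Ms4a1 spot 7428, bright on 9 arrays, had means of 8.21 at 1.5 h and 8.67 at 4 h, its highest. Igh-6 spot 9298 was also highest at 4 h (8.37), while the other clones were highest at 1 or 1.5 h. Cd22 was bright on no array, and Ms4a1 spot 2703 was bright on 1. What part these genes' cells have in the values of Traf1 and Casp12 was not tested. Neutrophil genes, on 6 clones of which 0 were called by limma and 3 had an unadjusted p under 0.05, ran from -0.68 to 0.86 at 1 h, from -0.46 to 0.19 at 1.5 h, from -0.27 to 0.41 at 3 h, from -0.20 to 0.52 at 4 h, from -0.44 to -0.34 at 18 h and from -0.37 to 0.02 at 24 h on the same centred scale. Itgam was bright on no array. Among the other members of the list S100a8 had means of 12.20 at 1 h, 12.12 at 3 h and 10.34 at 18 h, and S100a9 of 12.41, 12.71 and 11.13. Lcn2, also on the list of NF-kB target genes and bright on 44 arrays, had means of 9.45, 9.77 and 9.86 at these times, and Ltf of 8.72, 8.75 and 8.90, so that the list did not move as one. The part of neutrophils in the values of Birc3 and Nfkbia was not tested. The alveolar type II genes Sftpd and Slc34a2 were bright on all 50 arrays.

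Of the 11 clones of 6 genes of the BCL2 family, 1 was called over the time course, the clone of Bcl2l1 above. Bcl2, the founding survival gene of the family, had 4 clones whose time-point means lay between 7.28 and 8.00, none bright on any array, with adjusted p from 0.62 to 0.93. Bid, which links caspase 8 to mitochondria, had means between 7.78 and 8.00 (adjusted p = 0.68). The brighter clone of Bcl2l10 had means between 9.53 and 9.885 (adjusted p = 0.78). Among the other genes named Bcl, which are not members of that family, 0 of 8 clones were called by limma and 3 had an unadjusted p under 0.05. Bcl3, a nuclear IkB protein, had means of 7.125 at 4 h and 6.335 at 18 h on spot 8829 (adjusted p of the F test 0.25) and between 7.62 and 7.76 on spot 3030 (adjusted p = 0.89), neither bright on any array.

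Of the 6 clones of 4 inhibitor of apoptosis genes, 1 was called over the time course, that of Birc3. Birc2, the close relative of Birc3, had means of 8.50 at 3 h, 8.06 at 18 h and 8.04 at 24 h on spot 7424 (adjusted p = 0.18), and of 8.49, 8.315 and 8.34 on spot 7700 (adjusted p = 0.56). The step from 4 to 18 h was -0.31 ± 0.15 (SE) and -0.23 ± 0.12 on the 2 spots, with adjusted p of 0.45 and 0.51 (limma). Spot 7700 was bright on 2 arrays and spot 7424 on none. Birc5, which acts in cell division, had means between 8.26 and 8.43 (adjusted p = 0.87).

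The neighbors of these pathways were read from 3 further gene lists. Nfkbiz, on the list of NF-kB target genes, is also among the clones described above. Of 31 clones of 21 genes for kinases and adaptors around NF-kB, 0 were called by limma and 4 had an unadjusted p under 0.05. Of 29 clones of 22 NF-kB target genes, 1 was called: Saa3, an acute phase protein, whose mean log2 signal went from 7.03 at 1 h to 7.90 at 18 h and 8.23 at 24 h (adjusted p = 5.1e-06). Of 25 clones of 24 other apoptosis genes, 1 was called: Fas, the death receptor, at 7.37 at 1 h, 7.89 at 1.5 h, 7.82 at 3 h, 8.03 at 4 h, 6.945 at 18 h and 7.21 at 24 h (adjusted p = 0.0070). Neither clone was bright on any OA array. The median spans of the 3 lists were 0.32, 0.42 and 0.33, beside 0.33 over all clones.

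The second question was how the genes differed between OA and serum mice. Tlr9 was 2.74 ± 0.17 (SE) higher on the log2 scale in OA mice, averaged over the 5 shared time points, both clones of Birc2 were higher, and Myd88, Traf1 and both clones of Traf7 were lower. In all, 37 of 57 clones were called (64.9%, against 61.6% of all clones), 24 of them higher (42.1%, against 34.3%) and 13 lower (22.8%, against 27.3%). The median size of the difference was 0.34 over the 57 clones and 0.33 over all clones. With the arrays centred on their median in place of quantile normalization, 21 of the 57 clones were higher and 14 lower, the share of higher among all called clones moved from 55.7% to 43.6%, and the median difference of all clones moved from 0.05 to -0.06.

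The serum arrays also differed as a set. Their scanner tables have another column order, their median raw signal lay between 5.73 and 8.39 on the log2 scale against 6.75 to 9.36 on the OA arrays, and between 16.2% and 34.7% of their clones were bright against 21.3% to 45.2%. Injection and array set therefore cannot be told apart in this comparison, and most of all clones tested were called. The values below are scanner intensities of all arrays quantile-normalized together, on the log2 scale.

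Tlr9 was between 9.64 and 11.41 in the OA mice and between 7.29 and 8.52 in the serum mice, without overlap, and was bright on 0 of 9 serum arrays and 49 of 50 OA arrays (adjusted p = 1.3e-13, limma). The difference was 2.29 at 1 h, 2.94 at 1.5 h, 2.64 at 3 h, 2.95 at 18 h and 2.90 at 24 h. Birc2 was higher by 1.02 ± 0.07 (SE) on spot 7700 and by 0.79 ± 0.09 on spot 7424, and on both spots the lowest OA mouse (8.08 and 7.82) was above the highest serum mouse (7.50 and 7.66). Casp4 was higher by 0.59 ± 0.10 (9.83 to 10.83 in OA mice, 9.31 to 9.82 in serum mice) and Casp1 by 0.44 ± 0.08, also without overlap. The sizes depended on the processing: Casp4 was higher by 0.35 with median-centred arrays, and Casp1 by 1.15 with the fitted-spot signal of the scanner, its other estimate of a spot. In all, 9 of the 57 clones did not overlap between OA and serum mice, against 13% of all clones.

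Bcl2l1 spot 5390, called over the time course, was higher in OA mice by 0.57 ± 0.08 (SE, adjusted p = 1.1e-06, limma). It ranged from 8.56 to 9.15 in OA mice of the shared time points and from 7.63 to 8.84 in serum mice. The OA mice at 4 h, outside these time points, had a mean of 9.18. Birc5 was higher by 0.40 ± 0.07 and Nfkbie by 0.84 ± 0.09, with overlap of the groups, and the difference of Nfkbie was 0.47 with the fitted-spot signal (adjusted p = 0.027). Birc3 did not pass the test: it was 0.15 ± 0.07 higher (adjusted p = 0.058), with a difference of 0.41 at 3 h and of -0.05 at 1.5 h, and its difference was -0.0023 with median-centred arrays. With the fitted-spot signal it was higher by 0.29 and was called (adjusted p = 0.0074). Its serum mice were at 9.22 and 9.34 at 1 h, 9.41 at 1.5 h, 8.89 and 9.35 at 3 h, 9.09 and 8.73 at 18 h, and 8.85 at 24 h. The 3 serum mice at 18 and 24 h were thus among the 4 lowest of the 8.

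Nfkbia did not differ by the test, at 0.22 ± 0.16 (SE, adjusted p = 0.24) on spot 2283 and 0.04 ± 0.19 (adjusted p = 0.87) on spot 8123. With median-centred arrays both differences were below 0, at -0.22 and -0.29, and with the fitted-spot signal spot 2283 was higher by 0.44 and was called (adjusted p = 0.024). Its serum mice on spot 2283 were at 11.01 and 10.85 at 1 h, 11.06 at 1.5 h, 11.12 and 11.27 at 3 h, 10.57 and 10.82 at 18 h and 10.41 at 24 h. The serum mice at 18 and 24 h lay below those at 1.5 and 3 h. The change of the OA to serum difference with time, tested as an interaction over the 5 shared time points, was called for 0 of 57 clones by limma (7 with an unadjusted p under 0.05) and for 8 of all 7625 clones (608 with an unadjusted p under 0.05).

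Myd88 was lower in OA mice by 0.64 ± 0.09 (a log2 difference of -0.64, adjusted p = 3.2e-07, limma), and lower at all 5 time points. Traf1 differed by -0.66 ± 0.10, with -0.02 at 1.5 h and -1.16 at 24 h, and Traf7, a ubiquitin ligase, by -0.52 ± 0.11 and -0.90 ± 0.12 on its 2 spots. Relb differed by -0.73 ± 0.14 on spot 5232 and by -0.26 ± 0.14 on spot 9287 (adjusted p = 0.094), and Casp8, the initiator caspase above, by -0.49 ± 0.13. With the fitted-spot signal Relb spot 5232 differed by -1.28, Relb spot 9287 by -0.40 and Traf7 spot 1910 by -0.32 (adjusted p = 0.048), and Casp8 differed by -0.19 and was not called (adjusted p = 0.31). Nfkb2 differed by -0.29 ± 0.08 (adjusted p = 0.0028) but by 0.01 with the fitted-spot signal (adjusted p = 0.95). Clones of 1 gene did not always move together: Bcl2 was lower on spot 881 (-0.63) and higher on its other 3 spots (0.24 to 0.28), Bcl3 was lower on spot 8829 (-0.45) and higher on spot 3030 (0.27), and Bcl7a was lower on spot 106 (-0.61) and higher on spots 529 and 3374 (1.71 and 0.77). The calls of the 3 higher Bcl2 spots and of both Bcl3 spots were each lost in at least 1 alternative (highest adjusted p 0.16, limma). With the fitted-spot signal the difference was 0.62 on Bcl2 spot 1030, 0.49 on Bcl2 spot 1181, 0.61 on Bcl3 spot 3030 and -0.72 on Bcl3 spot 8829.

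**Figure D4:**
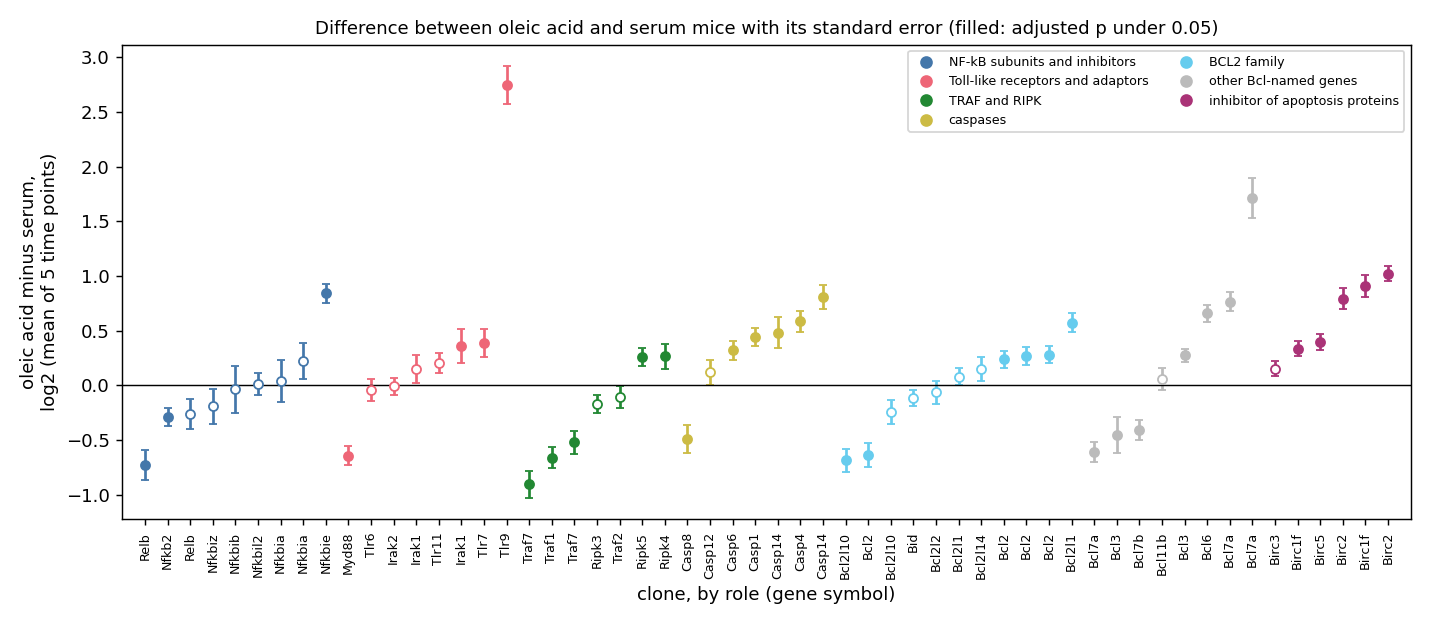
OA minus serum difference of each of 56 clones (vertical axis, log2, averaged over the 5 shared time points) with its standard error, grouped by role and ordered by size within a role (horizontal axis). Filled points passed an adjusted p of 0.05. Tlr9 lies at 2.74, and clones of Bcl2, Bcl3 and Bcl7a lie on both sides of 0.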

How the data were processed

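The authors hybridized lung RNA of 35 mice, labelled with 33P, to 60 nylon arrays of 9984 spots and quantified the images with Bzscan2. They deposited spot intensity values on a linear scale for each array, and a table of log2 values, quantile-normalized by them, with 51 OA columns (median 8.21 each) and 5 serum columns. The OA columns kept the order of their intensities (rank correlation of at least 0.999989), and log2 intensities normalized anew gave differences of like size (-0.51 against -0.50 for Birc3 from 4 to 18 h), which sets the base of the log. For serum the rank correlation was lower, between 0.77 and 0.93. Depth does not apply to arrays, and the number of mice and arrays limits the precision. Local background correction is stated by the authors, and whether the deposited intensities include it is unknown.

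The members and gene lists were chosen with earlier results of these data known. Time courses used the deposited log2 values, averaged per mouse without serum subtraction, in R 4.3.3 with limma 3.58.1 and jsonlite 2.0.0: an F test over 6 time points and contrasts of neighbouring time points, with Benjamini-Hochberg adjustment over 7625 clones at 0.05. The study's own test, SAM over 3 stages after serum subtraction, was replaced by limma, with both stage versions as alternatives. OA and serum mice were compared on log2 intensities (floor of 1, image signal at constant diameter) quantile-normalized over 60 arrays, with 24 residual degrees of freedom, of which 3 come from serum mice. Spots without a gene name and control spots were not tested. 1 OA array could not be tied to a mouse, since its labels give 1.5 h but its mouse name is that of arrays at 4 h. It did not enter the main fits. Named genes were those called over time plus a fixed list (Nfkb1, Nfkb2, Rel, Rela, Relb, Nfkbia, Nfkbib, Nfkbie, Tlr2, Tlr3, Tlr4, Myd88, Irak1, Traf2, Traf6, Ripk1, Casp1, Casp8, Bcl2, Bcl2l1, Bcl10, Bcl3, Bax, Bad, Bid, Birc2, Birc3, Birc5); all other members and list genes named were chosen after their values were seen. Marker lists of macrophages (5 clones), T cells (14 clones), endothelium (5 clones) and red cells (13 clones) had 0 clones called over time by limma, and 1, 5, 1 and 0 with an unadjusted p under 0.05. Clone pairs were correlated over mice with 100000 permutations, two-sided. The fits were tested on simulated data. Alternatives are given in the closing section. Figures were drawn with matplotlib. A few genes of the lists are not reported here, though the counts include their clones.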

Additional observations from a re-analysis of the deposited data

Results flagged for a closer look

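A mouse lay far from the others of its OA time point, by Dixon's 95% criterion, in 13 of 116 groups of 4 to 7 mice examined over the named clones. Chance alone flags about 1 in 20 such groups, but these groups share the same mice, so that the count shows nothing particular to these genes. Over all clones a mouse at 1 to 4 h was flagged for between 0.275% (P15L2) and 5.48% (P7L2) of them. All values are log2 signals, means of the arrays of a mouse.

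The mouse P7L2 at 1.5 h accounted for 3 of these: Irak1 spot 2814 was at 7.99 (others 9.235 to 9.475), Nfkbia spot 8123 at 9.51 (others 10.825 to 11.145) and Traf1 at 9.71 (others 8.58 to 8.97). Over all clones P7L2 was the outlying mouse for 418 clones (5.48%), more than any other mouse. The mouse P4L2 at 1 h, outlying for 2.32% of all clones, was low for Birc5 at 8.125 (others 8.365 to 8.375), for Nfkbib at 7.59 (others 8.235 to 8.315) and for Bcl3 spot 8829 at 5.76 (others 6.54 to 6.58). At 4 h P12L3, outlying for 2.31% of all clones, was at 10.365 for Nfkbia spot 2283 while the others lay between 11.725 and 11.90.

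At 1 h P2L3 was low for Bcl2 spot 1030 at 7.24 (others 7.51 to 7.565) and high for Relb spot 9287 at 7.59 (others 6.775 to 6.895), and P2L2 was high for Traf1 at 9.125 (others 8.73 to 8.785). Nfkbib was at 6.605 in P4L3 at 1.5 h (others 8.025 to 8.43). At 3 h Bcl2 spot 3537 was at 7.32 in P7L3 (others 7.635 to 7.82) and Birc3 at 9.82 in P8L3 (others 9.53 to 9.655).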

How the results depend on the processing

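Birc3 was called over the time course under all 35 alternatives (adjusted p from 3.3e-04 to 0.031, limma), while Bcl2l1 spot 5390 lost its call under 26 of 35 (highest adjusted p 0.13). Against 2 clones called over time, the count was 1 from scanner intensities quantile-normalized anew (155 clones in all), 1 with the number after L as a block (71 in all) and 1 without the array of conflicting labels (148 in all). It was 4 with arrays as samples and the mouse as a random block (438 in all), and 5 when a spline of the array number was added to that fit (501 in all), an alternative chosen after seeing the data. Tested over 3 stages, 5 clones were called without serum subtraction (Bcl2l1, Birc2 spot 7424, Birc3, Casp12 and Traf1, beside 6.16% of all clones) and 43 after subtraction of the deposited serum columns (75.4%, beside 77.5% of all clones). A time point has at most 1 such column, and 4 h has none. The error of a subtracted column shifts all mice of a time point alike, and the test cannot tell it from a change with time. Leaving out each mouse in turn gave 1 to 3 clones, and 89 to 299 in all. The single call between neighboring time points became 2 with the random block, 2 with the array number and 0 with the block of the number after L, and ranged from 0 to 4 with a mouse left out. Without the mouse P4L3 the 4 calls were Birc3 from 4 to 18 h and Bcl7a, Casp12 and Nfkbiz from 1.5 to 3 h.

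None of the 37 calls between OA and serum mice was called in the opposite direction under any alternative, though Nfkb2 changed sign without a call, and 34 stayed called with median-centred arrays, 31 with the fitted-spot signal. Without dim clones 6 of 13 clones tested were called. With a serum mouse left out the count was 35 to 38. Among the clones of the fixed list, differences that changed sign, none of them called after the change, were with median-centred arrays Nfkbia spots 2283 and 8123 (-0.22 and -0.29), Irak1 spot 2814 (-0.0134) and Birc3 (-0.0023), and with the fitted-spot signal Nfkbib (0.14), Nfkbia spot 8123 (-0.0463) and Nfkb2 (0.0107). Among the other clones, Bcl2l14 went from 0.15 to -0.23 with median-centred arrays and to -0.47 with the fitted-spot signal, where it was called (adjusted p = 0.0041), Nfkbil2 from 0.01 to -0.04 and -0.21, and with the fitted-spot signal Bcl2l2 went from -0.06 to 0.25, Ripk3 from -0.17 to 0.07, Irak2 from -0.01 to 0.07 and Tlr6 from -0.04 to 0.24, none of these 5 being called. With a serum mouse left out the OA minus serum log2 difference of Nfkbib spot 1334 ranged from -0.10 to 0.0267, and the OA minus serum log2 difference of Nfkbia spot 8123 from -0.0406 to 0.12. The cause of these changes was not tested. No paired analysis was possible because the replicate numbers name single mice, each killed at 1 time point. The number that opens the array titles followed the first principal component of the OA arrays (16% of variance, size of Spearman's rho 0.83).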
